A study of Homo sapiens with 2 samples.

Results

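TUG1 (taurine up-regulated 1, chromosome 22) is a widely expressed long non-coding RNA that is found in the nucleus and the cytoplasm, in part with its introns kept, and that has been described as a partner of the Polycomb repressive complex PRC2. The RefSeq gene table (GRCh38.p14) lists it as a protein-coding gene with 6 mRNA and 2 non-coding transcripts. Dihydrotestosterone (DHT) is an androgen, a steroid hormone that changes transcription in prostate cells, and the study asked which lncRNAs respond to DHT in prostate cancer cells. The account here covers 4 of the 77162 non-control probes of the array, A_19_P00320625, oebiotech_16399, A_19_P00812582 and oebiotech_09070. They were chosen by their measured difference between the arrays, because they did not move alike, and by the position of a qRT-PCR primer of the study. Their own differences are therefore given as a description. In every spot, 3 of them were brighter 2 h after DHT, from a 0 h signal that was not well above background. The 2 h array was also brighter as a whole, with a median processed signal of 21.6 units against 11.6 at 0 h. The fourth probe was well above background at both times and was 1.98-fold lower at 2 h after quantile normalization. Its difference was above 0 with no scaling (log2 difference of 0.25) or with a shift to the spike-in probes (0.62). In those settings it lay below the median of the probes detected on both arrays (0.93 and 1.30). The 15 other TUG1 probes that the study listed as changed were all at least 2-fold higher at 2 h after quantile normalization.

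LNCaP is an established human prostate cancer line that responds to androgens. RNA was taken after hormone starvation in charcoal-stripped serum, before DHT had acted (0 h) and 2 h after 10 nM DHT, and the label of the 0 h sample names the same dose. There was 1 array per time point, both on 1 slide, so no difference had a replicate and no test was made. With so few arrays the precision of each value is limited. In RNA pooled over many cells, a change in RNA per cell cannot be told apart from a change in the share of cells that hold it. No probe held 15 bases of the primers for KLK3 or TMPRSS2, which are known androgen-responsive genes, so their response and the identity of the line were not analysed here. Each of the 4 probes was printed at 3 places on each array, and an SD given below covers those spots only.

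The first 3 probes are not separate places on the RNA. They overlap on the same strand and together read 1 stretch of 99 bases, which also holds the site of the reverse primer of the TUG1 PCR. The sequences are shown because the overlap decides how the values can be compared. Capitals mark the 21 bases that all 3 probes hold (positions 40 to 60 of the stretch, counted from 1 at its 5′ end).
A_19_P00320625: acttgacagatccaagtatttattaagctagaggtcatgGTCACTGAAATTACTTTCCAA
oebiotech_16399: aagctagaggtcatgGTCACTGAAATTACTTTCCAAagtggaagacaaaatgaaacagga
A_19_P00812582: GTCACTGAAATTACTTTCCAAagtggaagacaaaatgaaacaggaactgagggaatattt

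Joined, the 3 probes give the stretch that follows, in which capitals mark the complement of primer TUG1-R (positions 63 to 85).
Joined stretch: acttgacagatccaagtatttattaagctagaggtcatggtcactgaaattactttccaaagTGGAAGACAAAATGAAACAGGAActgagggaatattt
Primer TUG1-R: TTCCTGTTTCATTTTGTCTTCCA
Probe A_19_P00812582 held all 23 bases of the primer site and oebiotech_16399 held 22 of them, whereas A_19_P00320625 ended before it. The partner primer TUG1-F matched none of the 19 TUG1 probes in the study's list of changed lncRNA probes over more than 7 bases.

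The fourth probe, oebiotech_09070, does not overlap the stretch. It is a TUG1 probe by the study's list alone: whether its sequence lies in TUG1, and on which strand, was not analysed here, since no genome sequence was used. In that list it carries the transcript ENST00000521091, as does oebiotech_19447, which is shown beside it because the pair moved apart.
oebiotech_09070: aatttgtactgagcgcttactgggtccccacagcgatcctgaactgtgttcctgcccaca
oebiotech_19447: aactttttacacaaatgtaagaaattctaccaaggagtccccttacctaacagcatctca
The longest run that oebiotech_09070 shared with any other TUG1 probe of the list was 8 bases on the same strand and 10 bases on the opposite strand. It was also the richest in G and C, with 53.3% of its 60 bases, against 28.3% to 45.0% in the 15 other TUG1 probes outside the 4. The array files give no genome position for any probe, so exon, intron and order along TUG1 were not analysed here.

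At 0 h none of the 3 overlapping probes was well above background, and at 2 h every one of their spots was. Probe A_19_P00320625 had processed signals of 11.6, 9.47 and 20.4 intensity units at 0 h, the first 2 of which were surrogates that the scanner software sets for spots not above background. At 2 h its spots read 187, 213 and 189 units. Probe oebiotech_16399 read 55.4, 28.0 and 25.4 units at 0 h and 268, 253 and 253 units at 2 h. Probe A_19_P00812582 read 13.0, 16.3 and 11.2 units at 0 h, the last being a surrogate, and 78.2, 84.5 and 74.1 units at 2 h. For each of the 3 probes the lowest spot at 2 h lay above the highest spot at 0 h, before any scaling between the arrays. At 0 h all 3 spots of oebiotech_16399 were positive and significant against background by the scanner software, as were 2 spots of A_19_P00812582 and 1 of A_19_P00320625. At 2 h 1 spot of A_19_P00320625 (213 units) and 1 of A_19_P00812582 (84.5 units) carried an outlier flag, and these were left out of the means below.

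After quantile normalization, which the study used, the log2 signal of A_19_P00320625 stood at 4.2 ± 1.06 at 0 h (3 spots) and 6.97 ± 0.01 at 2 h (2 spots). Since the 0 h side was not well above background, it was set to 5.65, the lowest level of a probe detected at 0 h, and the probe was at least 2.49-fold higher at 2 h. The log2 signal of oebiotech_16399, which the list places on transcript ENST00000519077, was 6.11 ± 0.61 at 0 h and 7.45 ± 0.05 at 2 h (SD over 3 spots each), at least 2.52-fold higher. Its 0 h signal lay above 5.65, so this bound is the plain difference of its signals and varied with the spots, as given below. The log2 signal of A_19_P00812582 was 4.35 ± 0.69 at 0 h (SD over 3 spots) and 5.66 ± 0.05 at 2 h (SD over 2 spots). Its 2 h signal lay 0.0059 above the lowest detected level of 0 h after this normalization, so its lower bound there says nothing of a change. The bound of A_19_P00812582 passed 2-fold with no scaling (1.26 on the log2 scale), with the spike-in shift (1.63) and with detection by any spot (1.25). The first of these settings and the spike-in shift also raised the median of all probes detected on both arrays. The call of at least 2-fold was not firm for the other 2: the bound of A_19_P00320625 was 0.92 on the log2 scale after aligning the arrays on their 75th percentile over all spots, 0.51 after normexp background correction, 0.96 in the authors' values and 0.43 with medians of spots, and that of oebiotech_16399 was 0.81 after normexp and 0.88 with medians of spots. Taken as signals without a bound, against 0 h spots that were not well above background, the log2 differences moved widely when single spots were left out, from 1.09 to 1.69 for oebiotech_16399, from 0.89 to 1.63 for A_19_P00812582, which shares 45 bases with it, and from 2.27 to 3.34 for A_19_P00320625, for which 2 of the 3 spots at 0 h held no measured value. No order among the 3 probes is read from them.

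Probe oebiotech_09070 was well above background in all 3 spots of both arrays. Its processed signals were 389, 324 and 340 units at 0 h and 401, 407 and 427 units at 2 h, so that before scaling each 2 h spot was brighter than every 0 h spot, and the ratio of the medians was 1.20. Quantile normalization turned this order. On the log2 scale it then read 9.16 ± 0.13 at 0 h (3 spots) and 8.18 ± 0.05 at 2 h (2 spots, since 1 outlier was left out), a difference of -0.98 or 1.98-fold lower, just short of the 2-fold limit. The difference ran from -1.07 to -0.88 when single spots were left out, on either side of that limit. The values with no scaling and with the spike-in shift, given above, had the opposite sign. In those settings the median log2 difference of probes detected on both arrays was 0.93 and 1.30. The probe lay below that median there, as it did after quantile normalization (median -0.29). The sign of its difference thus depends on how the arrays are scaled, and the change of sign is not particular to this probe.

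Among the 19321 probes detected on both arrays, the median log2 difference was -0.29 and the middle 50% lay between -0.85 and 0.44. The value of oebiotech_09070 was above that of 19.8% of these probes. The background of such calls was wide. Among the 32440 probes that either array detected, 15% passed 2-fold upward at 2 h and 11.9% passed 2-fold downward, counting lower bounds. These shares (4850 and 3850 probes) depend on the scaling. The counts were 18861 and 125 with no scaling and 24036 and 42 with the spike-in shift. With the arrays aligned on their 75th percentile over all spots they were 2985 and 7629. Of the 4 TUG1 probes, 2 passed upward and 0 downward; the choice of the probes used these same values, and nothing is read from the count.

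The study's list names 15 further TUG1 probes. The list holds only probes that the study called changed on these arrays, so their direction is not independent evidence. All 15 were at least 2-fold higher at 2 h, of which 13 were detected at both times, with log2 differences from 1.34 to 2.36 (median 2.14) and 2 detected at 2 h only. Of these calls, that of A_19_P00328886 was lost with the arrays aligned on the 75th percentile over all spots (0.66), after normexp (0.35), in the authors' values (0.63) and with medians of spots (0.20), and those of oebiotech_07831 (0.90) and oebiotech_19447 (0.99) with the percentile alignment. After quantile normalization the largest difference was that of A_19_P00320796, whose log2 signal was 9.77 ± 0.09 at 0 h and 12.12 ± 0.11 at 2 h (SD over 3 spots), 5.12-fold higher. The smallest of the 13 was that of oebiotech_19447, at 8.12 ± 0.08 and 9.46 ± 0.13, 2.53-fold higher. Neither rank was fixed: with no scaling or a shift of a whole array, oebiotech_07798 was the largest (3.82 against 3.27 with no scaling) and oebiotech_07831 the smallest (2.55 against 2.64), and oebiotech_07798 was also the largest in the authors' values (2.28 against 2.26), as was A_19_P00320120 with medians of spots (2.33). The probe oebiotech_19447 is the one that carries the same transcript name as oebiotech_09070. Its processed signals were 145, 166 and 158 units at 0 h and 889, 1054 and 982 units at 2 h, with no overlap between the arrays. The log2 difference of oebiotech_19447 exceeded that of oebiotech_09070 by 2.32, against spot SDs of 0.15 and 0.14 for the 2 differences. It exceeded it by 2.38 with no scaling or any shift of a whole array, which cannot alter a gap between probes, and by 1.95 after normexp background correction. The median of the 15 other TUG1 probes exceeded oebiotech_09070 by 3.09. Since oebiotech_09070 was chosen for its difference and the 15 had been called changed, these gaps are a description and the choice fixed their sign.

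For scale, pairs of probes anywhere on the array that overlapped by at least 30 bases on the same strand and were detected on both arrays had a median gap of 0.13 in log2 difference (middle 50% from 0.060 to 0.28, 1248 pairs). No such pair was available for oebiotech_09070. Of the 171 pairs among the 19 TUG1 probes, 4 shared at least 15 bases, and these pairs joined 5 probes. These 5, the 3 overlapping probes above with A_33_P3371270 and A_19_P00328886, were also the 5 TUG1 probes of the list that were detected at 2 h only. The last 2 share 24 bases. A_33_P3371270 read 5.79 ± 0.38 at 0 h and 7.86 ± 0.18 at 2 h on the log2 scale (SD over 3 spots), at least 4.18-fold higher, and A_19_P00328886 read 4.49 ± 1.05 and 6.71 ± 0.06, at least 2.08-fold higher. For A_33_P3371270 the bound is the plain difference of its signals, since its 0 h signal lay above the lowest detected level. The bound of A_33_P3371270 was lower after normexp (1.07 on the log2 scale) and with medians of spots (1.39), and higher with no scaling (3.41) and with the spike-in shift (3.78). The bound of A_19_P00328886 fell short of 2-fold in 4 alternatives, given above. The remaining 14 TUG1 probes, oebiotech_09070 among them, were all detected on both arrays and shared no run of 15 bases.

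By the gap between log2 differences over the 2 arrays, the TUG1 probe nearest to oebiotech_09070 was A_19_P00812582, with a gap of 0.99, but the value of the latter is only a bound. The probes nearest to A_19_P00320625 and oebiotech_16399 were oebiotech_16399 and oebiotech_19447, but both rankings rest on bounds as well, and as signals the first pair stood 1.44 apart. Outside the list, 3 probes shared 15 bases or more with one of the 4, none over more than 17 bases. They were A_33_P3365864 on the same strand and A_21_P0009137 and oebiotech_22114 on the opposite strand, and are named after the search was seen. None reached the 30 bases set for giving values.

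Among genes of the study's list with at least 2 probes detected on both arrays, TUG1 (14 probes) had a median log2 difference of 2.13. Of 18 other such genes, the nearest medians were those of GAS5, the host of several small nucleolar RNAs, at 2.35 (3 probes), LOC100129917 at 1.71 (2 probes) and SNHG1, another small nucleolar RNA host gene, at 1.63 (2 probes). These medians cover only probes of the list, which had been called changed. Beside the pair of TUG1 probes, 11 probes held at least 15 bases of another primer of the lncRNA PCRs. Of these, 1 was at least 2-fold higher, the MIR17HG probe at 1.47 (MIR17HG is the host of a microRNA cluster), and 1 at least 2-fold lower, that of RP1-45I4.2 at -1.55. The remaining 9 were short of 2-fold or detected on neither array. Among them were 2 GAS5 probes at 0.39 and 0.61, against 1.99 to 2.87 for the 3 GAS5 probes of the list that were detected on both arrays. A SNHG1 probe detected on both arrays stood at 0.71 and another had a bound of 0.81, against 1.51 to 1.76 for the 2 SNHG1 probes of the list detected on both. Since the list holds only probes called changed, the choice of probes sets these gaps at least in part, and nothing is read from them.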

How the data were processed

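The authors hybridized Cy3-labelled cRNA of each sample to 1 Agilent array. They deposited Feature Extraction output (version 10.7.1.1) with background-corrected intensity values per spot, not normalized between arrays, and a table of log2 values, quantile normalized in GeneSpring. The deposited p-value of each spot against its background, computed by the software, was not used. No scaling constant of that table is stated; its medians were 4.43 and 4.43, and it correlated with the levels computed here at 0.997 (0 h) and 1.00 (2 h) across probes.

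Starting from the processed signals, quantile normalization was run over 175556 non-control spots and log2 taken (Python 3.11.15, numpy 2.4.6, pandas 2.3.3; checked against limma 3.58.1 in R 4.3.3). Spots with outlier flags were left out (2628 at 0 h, 2528 at 2 h; 0 were saturated) and the others of a probe averaged. Detection of a probe required that the software's flag for well above background was set in a share of 0.5 or more of its spots; 19455 probes were at 0 h and 32306 at 2 h. Where 1 array only detected a probe, the other side was set to the higher of its signal and the lowest detected level (5.65 at 0 h, 4.64 at 2 h), and the fold is a lower bound. A bound that came out on the other side of 0 was set to 0.

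Probes named are the 4 chosen ones, TUG1 probes of the study's list that overlap one of them or carry its transcript, the largest, smallest and nearest differences, and the genes nearest in median. Members and lists were chosen with earlier results of these data known. Primers were matched over at least 15 bases. Columns of fold changes in the study's supplementary list were not used. With 1 array per time point no test was made. Alternatives were 4 other scalings, a normexp background correction (offset 50), the authors' values, outlier spots kept, medians of spots, other detection rules and a 3-fold threshold; setting the median difference to 0 was chosen after seeing the data.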

Additional observations from a re-analysis of the deposited data

How the results depend on the processing

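Among the 4 probes, the difference of oebiotech_09070 (-0.98) changed sign. The bounds of the other probes could not, because a bound below 0 was set to 0. This was done for A_19_P00812582 with alignment on the 75th percentile over all spots, after normexp, in the authors' values and with medians of spots. For oebiotech_09070 the difference was 0.62 with a shift to the spike-in probes and 0.25 with no scaling. Both values lay below the median of probes detected on both arrays there (1.30 and 0.93). The difference was -1.40 with alignment on that 75th percentile. It was -0.68 with the median difference of probes detected on both arrays set to 0, chosen after seeing the data. There oebiotech_16399 stood at 1.99. Under the spike-in shift A_19_P00320625, oebiotech_16399 and A_19_P00812582 stood at 2.93, 3.29 and 1.63, with no scaling at 2.56, 2.92 and 1.26, and without a detection rule A_19_P00320625 and A_19_P00812582 stood at 2.77 and 1.31. The range over the 4 probes was 2.31, and 1.68 after normexp, where the upper end of both was the bound of oebiotech_16399. Without a detection rule the range was 3.76, with A_19_P00320625 taken as a signal although its 0 h spots were not well above background.

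Of the 19 TUG1 probes, 17 were at least 2-fold higher, and 12 to 18 in the alternatives; 1 was at least 2-fold lower with that percentile shift, in the authors' values and with outlier spots kept. Over all detected probes, those at least 2-fold higher (4850) numbered 2985 with that percentile shift, 24036 with the spike-in shift, 18861 with no scaling, 2304 after normexp, 2311 with detection on both arrays, 7897 with detection by any spot and 1839 at 3-fold. Those at least 2-fold lower (3850) numbered 7629 with that percentile shift, 42 with the spike-in shift, 125 with no scaling, 1555 after normexp and 949 at 3-fold. The scalings shifted the median difference of probes detected on both arrays from -0.29 to -0.71 (that percentile), 1.30 (spike-in) and 0.93 (none).

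Signal over background limits the 3 overlapping probes, none of whose 0 h spots was well above background, and at 0 h 21.9% of spots were well above background, against 37.4% at 2 h. The part of this difference in the bounds was not tested. No paired analysis was possible because there was 1 array per time point.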
